A study of Macaca mulatta with 12 samples.

Results

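CLDN5, SOX17 and ERG are 3 genes that mark blood vessel endothelium, and they were followed across 12 corpora lutea of rhesus macaques. The corpus luteum is a temporary gland of the ovary that makes progesterone after ovulation. One-colour Affymetrix rhesus arrays measured its messenger RNA, 1 array per gland, in animals with normal menstrual cycles. The 4 late regressed glands were taken at days 14 to 16 after the LH surge at a serum progesterone below 0.5 ng/ml, the 4 late functional glands on the same days at a serum progesterone above 1.5 ng/ml, and the 4 mid-late glands, the baseline of the study, at days 10 to 12. The groups differ in stage or in serum progesterone, none received a treatment named in the labels, and the late groups were told apart by a hormone level that the gland itself makes.

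The members are all probe sets that the platform annotation gives to exactly 1 of the 3 genes, 6 of 52707 probe sets and 3 of 14132 genes. CLDN5 has 1, SOX17 has 2 and ERG has 3, numbered here within a gene by falling mean level. The genes had been picked from an endothelial list because a probe set of each passed the test between late regressed and mid-late glands. Their values in that comparison are therefore given as a description, and the adjusted p-values printed for it only describe the choice. The pan-endothelial gene just inside the threshold was SOX17, with an adjusted p of 0.0455 by limma, and the one just outside was EGFL7, with an adjusted p of 0.0565 by limma and a log2 difference of 0.56.

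The corpus luteum is densely vascularised, and its capillaries carry cholesterol in and progesterone out. Claudin-5, the product of CLDN5, forms the tight junction strands between endothelial cells. ERG is a transcription factor of the ETS family that maintains endothelial identity and junctions, and SOX17 is a transcription factor of the SoxF group, with SOX7 and SOX18, that takes part in arterial differentiation. In whole-gland RNA, fewer cells of a type and less RNA per cell cannot be told apart.

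The tissue carried the RNA of its labelled cells. Of 13 steroidogenic markers 10 were measured, and 0 of these had a mean at or below 4.64 (the NC limit, which is the 95th percentile over 674 low-signal probe sets whose names start with NC). Their mean log2 level per array ran from 8.04 to 9.99 in late regressed, from 9.99 to 10.66 in late functional and from 10.76 to 11.02 in mid-late glands. Of 31 pan-endothelial markers other than the members, 24 were measured and 0 had a mean at or below that limit. Their mean log2 level per array ran from 7.75 to 8.14 in late regressed, from 7.89 to 8.01 in late functional and from 7.81 to 8.05 in mid-late glands, with overlap of all 3 groups. Late regressed array 2 stood apart in RNA quality. Its 3′ signal exceeded its 5′ signal by 2.52 on the log2 scale over the beta-actin and GAPDH controls, against 0.46 to 0.70 on the other late regressed arrays, 0.53 to 0.61 on late functional and 0.63 to 0.69 on mid-late arrays.

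CLDN5 separated the late regressed glands from both other groups. On late regressed arrays 1 to 4 it read 8.75, 9.27, 8.67 and 8.78 on the RMA log2 scale. On late functional arrays 1 to 4 they were 8.27, 8.17, 8.27 and 8.24, and on mid-late arrays 1 to 4 they were 8.05, 8.24, 8.16 and 8.21. Every late regressed array lay above every other array, whereas the late functional and mid-late arrays overlapped. Against mid-late glands this was favoured by the choice of the gene. Of all probe sets, 7.99% had every late regressed array above mid-late and 2.33% had every late regressed array above late functional. The group means were 8.87 ± 0.27 in late regressed, 8.24 ± 0.05 in late functional and 8.16 ± 0.08 in mid-late glands (SD, n = 4 each). Late regressed array 2, the array with the largest 3′ to 5′ difference, held the highest value.

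SOX17 showed a graded order with more spread. For probe set 1, late regressed arrays 1 to 4 read 8.75, 9.44, 8.33 and 8.51. The late functional arrays read 8.14, 8.00, 8.47 and 8.61, and the mid-late arrays 8.00, 8.11, 8.10 and 7.78. The late regressed arrays lay above all mid-late arrays, which was favoured by the choice of the gene. They overlapped the late functional ones, which in turn overlapped mid-late. The means were 8.76 ± 0.49 in late regressed, 8.31 ± 0.28 in late functional and 8.00 ± 0.15 in mid-late glands (SD, n = 4 each). Across the late regressed arrays, the order of SOX17 levels was that of the 3′ to 5′ difference, from 2.52 on array 2 over 0.70 on array 1 and 0.51 on array 4 to 0.46 on array 3. In the other groups the difference spanned only 0.63 to 0.69 (mid-late) and 0.53 to 0.61 (late functional), too little to judge this order. Mid-late arrays 1 and 4 had nearly the same difference (0.69 each) and read 8.00 and 7.78. Late functional array 2 had the smallest difference of its group (0.53) and the lowest SOX17 level (8.00). Late functional arrays 1, 3 and 4 (0.61, 0.59 and 0.61) read 8.14, 8.47 and 8.61.

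The second SOX17 probe set gave the late regressed values 6.93, 7.86, 6.53 and 7.42. Its late functional values were 6.66, 6.64, 7.03 and 7.77, and its mid-late values 6.60, 6.43, 6.47 and 6.19. Both late groups spread over more than 1 log2 unit here and overlapped each other, and all late functional arrays lay above all mid-late arrays. The means were 7.19 ± 0.58 in late regressed, 7.03 ± 0.53 in late functional and 6.42 ± 0.17 in mid-late glands (SD, n = 4 each).

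ERG was higher in both late groups by its first probe set. On late regressed arrays 1 to 4 it read 7.42, 7.82, 7.82 and 7.73. The late functional arrays read 7.58, 7.43, 7.44 and 7.55, and the mid-late arrays 7.08, 7.15, 7.03 and 7.39. All 8 late arrays lay above all 4 mid-late arrays, and the late groups overlapped. For the late regressed arrays this was favoured by the choice of the gene. Of all probe sets, 7.68% had every late functional array and 7.99% every late regressed array above mid-late. The means were 7.70 ± 0.19 in late regressed, 7.50 ± 0.08 in late functional and 7.16 ± 0.16 in mid-late glands (SD, n = 4 each).

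The other ERG probe sets did not repeat this separation. Probe set 2 read 6.96, 6.18, 7.52 and 7.48 on the late regressed arrays, 7.20, 7.41, 7.11 and 7.14 on the late functional arrays, and 7.05, 7.07, 6.90 and 7.19 on the mid-late arrays. Late regressed array 2 was the lowest of the 12 here, while it was the highest for CLDN5 and for both SOX17 probe sets. Probe set 3 read 6.40, 6.83, 6.34 and 6.42 in late regressed glands, 6.29, 6.42, 6.40 and 6.21 in late functional glands, and 6.02, 6.41, 6.04 and 6.41 in mid-late glands. All 3 groups overlapped for both probe sets. The sources used here do not say where in the gene each probe set lies.

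**Figure D1:**
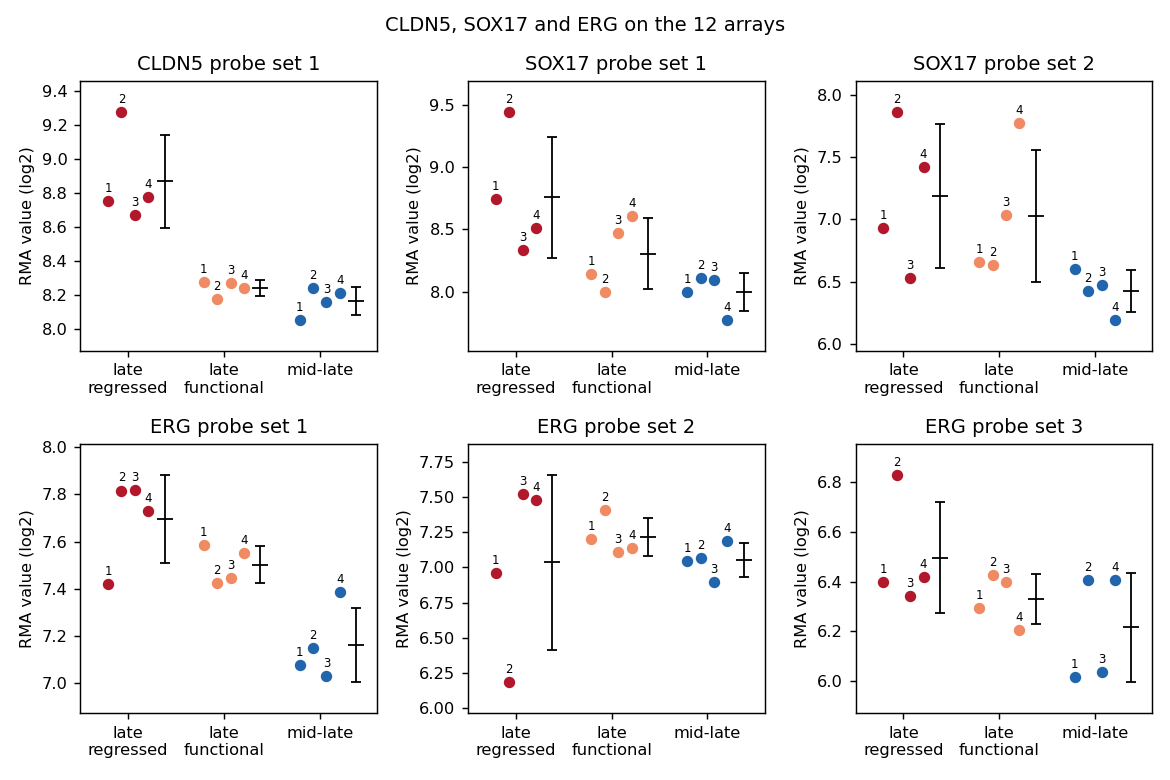
RMA log2 values (vertical axes) of the 6 probe sets of CLDN5, SOX17 and ERG on each array, by group, with replicate numbers beside the points and the mean ± SD (n = 4) as bars. CLDN5 on the late regressed arrays (8.67 to 9.27) lies above all other arrays, and ERG probe set 1 separates both late groups from mid-late glands. Separation of late regressed from mid-late glands was favoured by the choice of the genes.

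Late regressed against mid-late glands is the comparison that chose the genes. CLDN5 was 1.63-fold higher in late regressed glands (log2 difference 0.70), SOX17 was 1.70-fold higher by both probe sets (0.76 each), and ERG was 1.45-fold higher by probe set 1 (0.53). ERG probe set 3 differed by 0.28 and ERG probe set 2 by -0.01. Over 11 other settings ERG probe set 2 ranged from -0.38, after fitting the NC mean, to 0.21, after fitting the 3′ to 5′ difference. By the choice of the genes, 3 of the 6 probe sets were called higher, beside 5.41% of all probe sets, and 3 did not overlap with mid-late upwards, beside 7.99% of all. When each array was left out in turn, the log2 difference stayed between 0.57 and 0.77 for CLDN5, between 0.54 and 0.91 for SOX17 probe set 1 and between 0.49 and 0.62 for ERG probe set 1. The lowest values of CLDN5 and SOX17 were those without late regressed array 2. The choice itself depended on the setting. Over 11 other settings the limma adjusted p ran from 0.00708 to 0.552 for CLDN5, from 0.0337 to 0.566 for SOX17 probe set 1 and from 0.0127 to 0.655 for ERG probe set 1, highest with the NC mean as a covariate. That mean of the NC probe sets ran from 3.65 to 3.75 on mid-late arrays. It ran from 3.53 to 3.61 on late functional and from 3.48 to 3.58 on late regressed arrays. Mid-late arrays thus did not overlap the others, and a fit with the NC mean separates poorly between this covariate and a difference from mid-late glands. In the fits without 1 array SOX17 would have been chosen in 3 of 12. With the 3′ to 5′ difference of the arrays as a covariate, the differences were 0.60 for CLDN5, 0.58 for SOX17 probe set 1, 0.51 for ERG probe set 1 and 0.19 for ERG probe set 3.

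Late regressed against late functional glands compares glands of the same days at low and at higher serum progesterone. This comparison shares the late regressed arrays with the one that chose the genes and is not independent of it. CLDN5 was 1.55-fold higher in late regressed glands, a log2 difference of 0.63 (SE 0.12, 95% interval 0.38 to 0.88). All 4 late regressed arrays lay above all late functional arrays. It missed the threshold across all probe sets (limma adjusted p = 0.11), at rank 78 of 52707 by p. It passed without late regressed array 1 (limma adjusted p = 0.0325), in a fit that called 924 probe sets against 1 with all arrays. Over the 12 fits that each left out 1 array its limma adjusted p ran from 0.0325 to 0.393, and this was the 1 fit in which it passed.

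SOX17 probe set 1 differed by 0.45 between late regressed and late functional glands (interval -0.02 to 0.92, limma adjusted p = 0.44), which shrank to 0.23 without late regressed array 2. SOX17 probe set 2 differed by 0.16 (interval -0.48 to 0.80, limma adjusted p = 0.906) and turned to -0.064 without that array. ERG probe set 1 differed by 0.19 (interval -0.03 to 0.42, limma adjusted p = 0.516), which became 0.07 without late regressed arrays 2 and 3. ERG probe set 2 differed by -0.18 (interval -0.70 to 0.34, limma adjusted p = 0.854) and by 0.10 without array 2, and ERG probe set 3 by 0.17 (interval -0.11 to 0.45, limma adjusted p = 0.689) and by 0.055 without array 2. By limma 0 of the 6 probe sets were called, beside 0.0019% of all probe sets. At an unadjusted p below 0.05 it was 1 of 6, beside 11.8% of all, and 1 of 6 did not overlap upwards, beside 2.33% of all.

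Late functional against mid-late glands compares later with earlier glands. The labels call the late ones functional and the mid-late ones the baseline, and give no serum progesterone limit for mid-late glands. This comparison shares the mid-late arrays with the one that chose the genes. ERG probe set 1 was 1.26-fold higher in late functional glands, with a log2 difference of 0.34 (SE 0.10, 95% interval 0.11 to 0.57, limma adjusted p = 0.125). SOX17 probe set 2 differed by 0.60 (interval -0.04 to 1.24, limma adjusted p = 0.294), and 0.35 of this was left without late functional array 4. SOX17 probe set 1 differed by 0.31 (interval -0.16 to 0.78, limma adjusted p = 0.466). CLDN5 differed by 0.08, with an interval of -0.18 to 0.33 (limma adjusted p = 0.769), and turned to -0.032 after a renewed quantile normalization.

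ERG probe sets 2 and 3 differed by 0.16 and 0.11 between late functional and mid-late glands (limma adjusted p = 0.753 and 0.674). By limma 0 of the 6 probe sets were called here, beside 0.892% of all probe sets, and 1 of 6 had an unadjusted p below 0.05, beside 18.7% of all. The arrays did not overlap upwards for 2 of 6, SOX17 probe set 2 and ERG probe set 1, beside 7.68% of all probe sets.

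A contrast of late functional glands with the midpoint of the late regressed and mid-late means was added after the group means had been seen. It would be independent of the difference that chose the genes only if late regressed and mid-late arrays had equal spread. The SD of CLDN5 was 0.27 in late regressed and 0.08 in mid-late glands, so this contrast is not free of the choice. For CLDN5 the late functional mean was 8.24 and the midpoint 8.51, a log2 difference of -0.28 (SE 0.10, interval -0.49 to -0.06). This did not pass across all probe sets (limma adjusted p = 0.463). SOX17 probe set 1 differed from its midpoint by -0.07 (interval -0.48 to 0.33, limma adjusted p = 0.933), and ERG probe set 1 differed from its midpoint by 0.07 (interval -0.13 to 0.27, limma adjusted p = 0.84). By limma 0 of the 6 probe sets were called in this contrast, beside 0.019% of all, and 1 of 6 had an unadjusted p below 0.05, beside 9.08% of all.

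**Figure D2:**
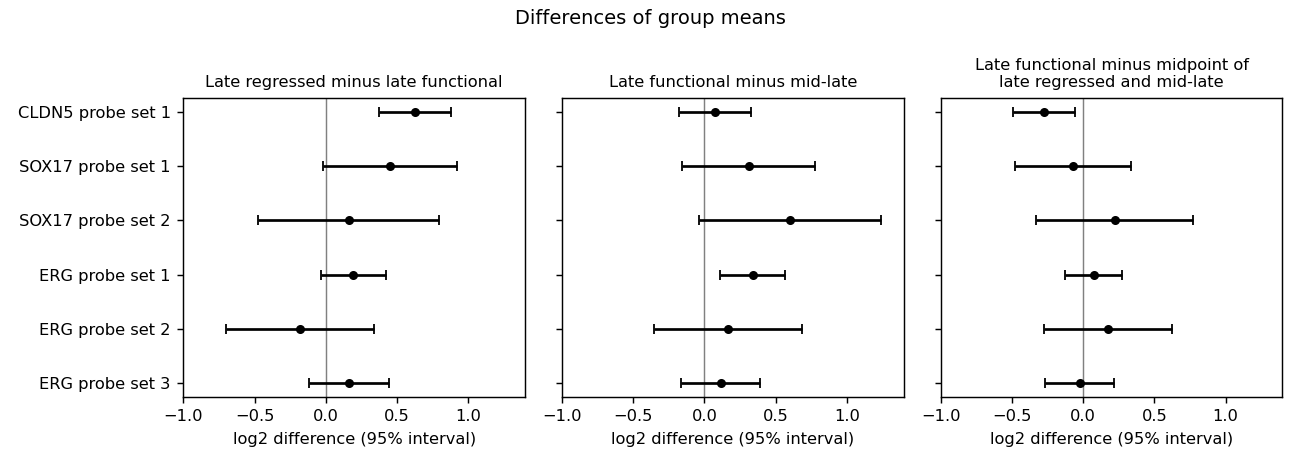
Log2 differences of group means (horizontal axes) with 95% intervals from limma for the 6 probe sets, in the comparisons that did not choose the genes. The CLDN5 interval lies above 0 for late regressed minus late functional (0.38 to 0.88), and the ERG probe set 1 interval lies above 0 for late functional minus mid-late (0.11 to 0.57); neither passed after adjustment over all probe sets.

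Covariation of the genes within groups was weak or rested on a few arrays for the first probe sets. Deviations of the 12 arrays from their group means were compared for the 3 pairs of first probe sets, with exact two-sided permutations within groups and adjustment over the 3 pairs. CLDN5 and SOX17 gave Pearson's r = 0.79 (exact permutation p = 0.0462, adjusted 0.139) and Spearman's rho = 0.57 (exact permutation p = 0.0859, adjusted 0.258). Without late regressed arrays 2 and 3, the farthest from the median of CLDN5, r fell to 0.29, or to 0.16 with the group means retaken on the arrays left, so this relation rests on those arrays. CLDN5 and ERG gave r = 0.36 (exact permutation p = 0.407, adjusted 0.61; rho = 0.41, exact permutation p = 0.246, adjusted 0.369; r = 0.58 without the same arrays). SOX17 and ERG gave r = -0.05 (exact permutation p = 0.921, adjusted 0.921; rho = -0.13, exact permutation p = 0.71, adjusted 0.71; r = -0.24 without them).

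Over all 15 pairs of the 6 probe sets, which were added after the values were seen, 1 passed after adjustment. SOX17 probe set 1 and ERG probe set 2 moved in opposite directions, with r = -0.92 (exact permutation p = 0.000651, adjusted 0.00976) and rho = -0.86 (exact permutation p = 0.00188, adjusted 0.0282). The r was -0.74 without late regressed arrays 2 and 3, and -0.72 with the group means retaken. CLDN5 and ERG probe set 3 gave r = 0.78 (exact permutation p = 0.0203, adjusted 0.102; rho = 0.76, exact permutation p = 0.0167, adjusted 0.125), and r = 0.61 without these arrays or 0.59 with the group means retaken. The SOX17 probe sets followed each other with r = 0.82 (exact permutation p = 0.0101, adjusted over 15 pairs 0.0758; rho = 0.71, exact permutation p = 0.0428, adjusted 0.214; r = 0.66 without these arrays). ERG probe sets 1 and 2 gave r = 0.06 (exact permutation p = 0.912, adjusted 0.921; rho = 0.27, exact permutation p = 0.476, adjusted 0.714; r = -0.08 without late regressed array 1 and mid-late array 4). With the group means retaken, these ERG probe sets gave r = 0.73 without late regressed array 2 (exact permutation p = 0.0512) and 0.65 without late regressed arrays 2 and 3 (exact permutation p = 0.155), both unadjusted. Across the late regressed arrays, ERG probe set 2 ran from lowest to highest as the 3′ to 5′ difference ran from 2.52 to 0.46, the reverse of SOX17 probe set 1. The other groups spanned too little of the 3′ to 5′ difference to judge this (0.63 to 0.69 in mid-late, 0.53 to 0.61 in late functional glands). Mid-late arrays 1 and 4 (0.69 each) read 7.05 and 7.19 for ERG probe set 2. Late functional array 2, with the smallest 3′ to 5′ difference of its group (0.53), read 7.41, the highest of that group. With that difference as a covariate, the SE of ERG probe set 2 between late regressed and late functional glands shrank to 0.12, against 0.24 without it.

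**Figure D3:**
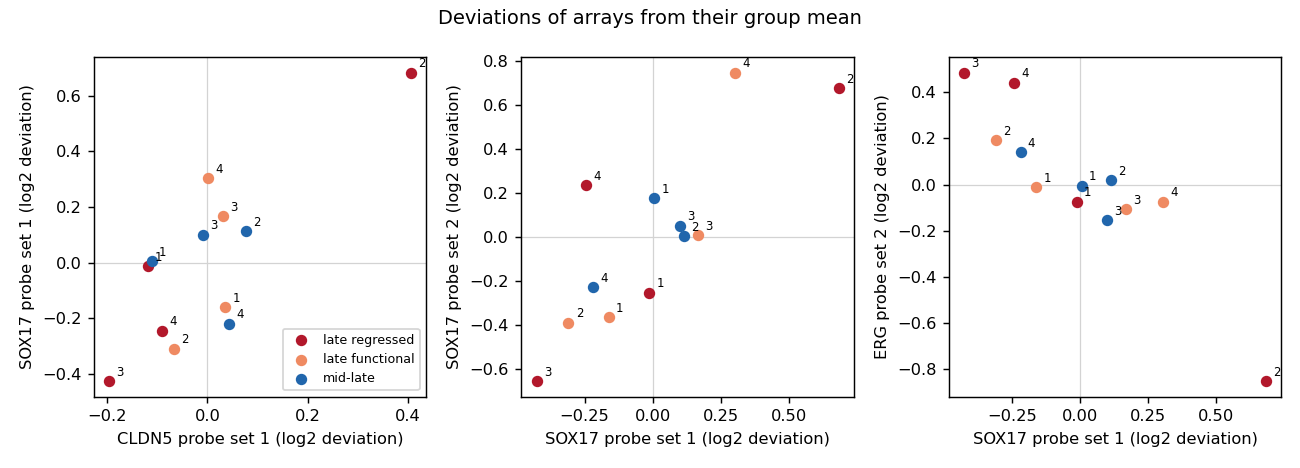
Log2 deviations of the 12 arrays from their group means for 3 pairs of probe sets, coloured by group and numbered by replicate. Late regressed array 2 lies farthest to the right in all 3 panels, and SOX17 probe set 1 runs against ERG probe set 2 (r = -0.92, and -0.74 without late regressed arrays 2 and 3).

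The genes most like each member were ranked by the Pearson correlation of these deviations over the 12 arrays, among 8828 other genes with a named symbol and a mean above the NC limit. For CLDN5 they were LRRFIP1 (0.96), MOGS (0.96) and TMEM131L (0.95), for SOX17 POLR3GL (0.95), ST3GAL1 (0.94) and RP9 (0.94), and for ERG DPYSL4, SF1 and EXOC6 (0.85 each). None of these 9 genes was on an endothelial list. Without late regressed arrays 2 and 3, and with the group means retaken, LRRFIP1 was at 0.59 with CLDN5 and the other 8 genes were between 0.82 and 0.91 with their member. These values are descriptions, and the arrays share their RNA quality and normalization. Endothelial CDH5, the adherens junction protein VE-cadherin, ranked at 137 for CLDN5 and at 85 for SOX17 (r = 0.82 and 0.80). Without late regressed arrays 2 and 3 it fell to 0.09 and 0.35. Of the 9 fixed endothelial genes it was the most like both. KDR, SOX18 and FLI1 went the other way, at -0.74, -0.37 and -0.26 with CLDN5 and -0.64, -0.42 and -0.18 with SOX17. For KDR this became 0.29 and -0.05 without those arrays. With ERG the fixed genes ran from -0.44 (KDR) to 0.47 (TEK).

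The 6 endothelial lists, taken without CLDN5, SOX17 and ERG, held 111 distinct genes, of which 88 were measured. At or below the NC limit lay 2 measured transcription factors, 3 junction genes, 2 receptors, 0 arterial and Notch genes and 2 venous and lymphatic genes. Between late regressed and mid-late glands 16 of the 88 rose, 2 fell and 70 did not pass by limma. Of all genes 7.6% rose and 5.51% fell in this comparison. The median log2 difference of the 88 genes was 0.20 and that of all 14132 genes -0.02. With late regressed arrays 2 and 3 left out, 3 of the 88 passed, in a fit that also called fewer of all probe sets. By limma 0 of the 88 were called between late regressed and late functional glands (17 at an unadjusted p below 0.05) and 0 between late functional and mid-late glands (18 at an unadjusted p below 0.05). The shares of all genes called were 0.00708% higher and 0% lower in the first of these and 0.58% higher and 0.594% lower in the second. Of all probe sets, 11.8% had an unadjusted p below 0.05 by limma in the first and 18.7% in the second. These 2 shares count probe sets, also those without a symbol, whereas the 88 are genes with 1 probe set each. The share over genes was not taken.

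Among 24 measured endothelial transcription factors other than SOX17 and ERG, 6 rose between late regressed and mid-late glands, 0 fell and 18 did not pass. KLF4, a factor induced by laminar shear stress in endothelium, rose by 0.95, MECOM by 0.88, LYL1, a basic helix-loop-helix factor of blood and endothelial lineages, by 0.63, and NR2F2, which specifies veins, by 0.60 (limma adjusted p = 0.0395, 0.0296, 0.0124 and 0.00697). In the fit without late regressed arrays 2 and 3, NR2F2 passed (0.51, limma adjusted p = 0.0396) and the other 3 did not. KLF4 was at 0.39, LYL1 at 0.46 and MECOM at 0.93, so MECOM lost its call without a smaller difference, in a fit with fewer arrays. Over the 12 fits that left out 1 array each, KLF4 passed in 3, MECOM in 8, and LYL1 and NR2F2 in 12.

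The nearest relatives of the members did not pass. FLI1, the closest ETS relative of ERG, averaged 8.66 ± 0.37 in late regressed, 8.45 ± 0.25 in late functional and 8.17 ± 0.16 in mid-late glands (SD, n = 4 each; late regressed minus mid-late 0.49, limma adjusted p = 0.0941), with 1 of its 7 probe sets called. SOX7 averaged 6.36 ± 0.45, 5.95 ± 0.45 and 5.64 ± 0.43 in late regressed, late functional and mid-late glands (SD, n = 4 each; late regressed minus mid-late 0.72, limma adjusted p = 0.114). SOX18 averaged 6.96 ± 0.22, 7.26 ± 0.28 and 7.09 ± 0.22 in the same groups (SD, n = 4 each; late regressed minus mid-late -0.13, limma adjusted p = 0.625). The SoxF members thus had differences of both signs.

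Of 15 measured junction genes other than CLDN5, 5 rose between late regressed and mid-late glands, 1 fell and 9 did not pass, among them 3 at or below the NC limit. TJP1, which encodes the scaffold ZO-1 that anchors claudins, rose by 0.78, CLDN15 by 0.66 and F11R, the junctional adhesion molecule A gene, by 0.64 (limma adjusted p = 0.0206, 0.0179 and 0.0297). CLDN3, a claudin of epithelial tight junctions, fell by 2.32 (limma adjusted p = 0.0346), at 6.92 ± 1.64 in late regressed and 9.24 ± 0.26 in mid-late glands (SD, n = 4 each). Without late regressed arrays 2 and 3 its difference shrank to -0.91 (limma adjusted p = 0.0324), and TJP1 (0.80), CLDN15 (0.45) and F11R (0.68) did not pass. Over the 12 fits without 1 array, CLDN3 passed in 3, F11R in 8, TJP1 in 10 and CLDN15 in 11. CDH5 averaged 10.28 ± 0.38 in late regressed, 9.88 ± 0.18 in late functional and 9.98 ± 0.12 in mid-late glands (SD, n = 4 each), and PECAM1, the platelet and endothelial adhesion molecule, 10.29 ± 0.56, 10.15 ± 0.11 and 10.10 ± 0.22 in these groups (SD, n = 4 each). Late regressed minus mid-late differences were 0.31 for CDH5 (limma adjusted p = 0.232) and 0.19 for PECAM1 (limma adjusted p = 0.608).

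Of 16 measured endothelial receptors 1 rose between late regressed and mid-late glands. TEK, the angiopoietin receptor TIE2, rose by 0.89 (limma adjusted p = 0.0248), at 8.82 ± 0.41 in late regressed and 7.94 ± 0.24 in mid-late glands (SD, n = 4 each), and was at 0.61 (limma adjusted p = 0.14) without late regressed arrays 2 and 3. It passed in 9 of the 12 fits without 1 array. Its related receptor TIE1 differed by 0.14 (limma adjusted p = 0.319). KDR, the main VEGF receptor, differed by -0.83 (limma adjusted p = 0.226), with 6.39, 4.04, 5.73 and 6.35 on late regressed arrays 1 to 4 and 6.06 to 6.81 on mid-late arrays. The lowest KDR value was on late regressed array 2, where CLDN5 and SOX17 were highest.

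JAG2, a Notch ligand, rose by 0.64 (limma adjusted p = 0.0106) and the chemokine receptor gene CXCR4 by 0.82 (limma adjusted p = 0.0386) among 13 measured arterial and Notch genes, and 11 did not pass. In the venous and lymphatic list 2 of 13 rose, NR2F2 and SELP, the P-selectin gene (0.87, limma adjusted p = 0.0154), and 11 did not pass. Of 24 measured pan-endothelial markers 3 rose and 1 fell between late regressed and mid-late glands. CLEC14A, an endothelial C-type lectin, rose by 1.50 (limma adjusted p = 0.0109), TEK by 0.89 and ICAM2, an endothelial adhesion molecule, by 0.62 (limma adjusted p = 0.0181). TFPI, the tissue factor pathway inhibitor, fell by 1.11 (limma adjusted p = 0.0296). VWF, the von Willebrand factor gene, averaged 10.00 ± 0.54 in late regressed, 10.27 ± 0.13 in late functional and 9.97 ± 0.20 in mid-late glands (SD, n = 4 each; late regressed minus mid-late 0.04, limma adjusted p = 0.929). The median log2 difference of the 24 markers was 0.15. Without late regressed arrays 2 and 3, JAG2 passed (0.54, limma adjusted p = 0.0451). CXCR4 (0.80), SELP (0.58), CLEC14A (1.15), ICAM2 (0.45) and TFPI (-0.95) did not. Over the 12 fits without 1 array, CXCR4 passed in 5, TFPI in 6, and JAG2, SELP, CLEC14A and ICAM2 in 12.

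**Figure D4:**
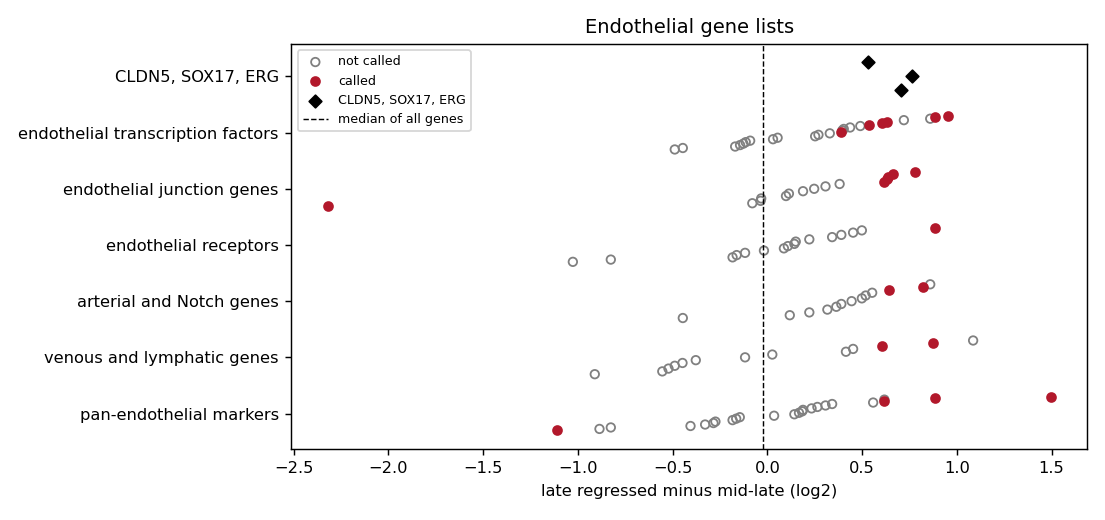
Log2 difference, late regressed minus mid-late, of each measured gene of the 6 endothelial lists (rows; filled red points were called, open points were not) with CLDN5, SOX17 and ERG as black diamonds and the median of all genes as a dashed line. CLDN3 (-2.32) and TFPI (-1.11) are the called genes left of the line, and CLEC14A (1.50) lies farthest to the right.

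Markers of other cell types moved beside the members. In the steroidogenic list 5 of 10 measured genes fell between late regressed and mid-late glands and 0 rose, with a median log2 difference of -1.93. HSD3B2, CYP19A1, HSD11B1 and MRAP passed in 12 of the 12 fits without 1 array and also without late regressed arrays 2 and 3, and FDXR passed in 4 and not without those arrays. Of 13 measured macrophage markers (16 listed) 0 passed, but their median log2 difference was 1.18, with 9 of 13 above 0. Between late functional and mid-late glands their median was also 1.18, with 12 of 13 above 0. The mean log2 level per array of these markers ran from 7.55 to 9.07 in late regressed, from 8.36 to 8.45 in late functional and from 6.48 to 8.13 in mid-late glands. Of 11 measured fibroblast markers (12 listed) 5 rose and 1 fell, with a median log2 difference of -0.18. Fibroblast mean levels were 8.49 to 8.79, 8.29 to 8.58 and 8.10 to 8.77 in these groups. Of the fibroblast markers called, FBLN1 and GSN passed in 12 of the 12 fits without 1 array and without late regressed arrays 2 and 3. DCN passed in 1, COL14A1 in 3, DPT in 5 and THY1, the one that fell, in 6, and none of these 4 without those arrays. Of 9 measured pericyte and smooth muscle markers (14 listed) 1 rose and 1 fell, with 7.89 to 8.27, 7.79 to 8.30 and 7.80 to 8.25. SYNPO2, which rose, passed in 6 of the fits without 1 array, MCAM, which fell, in 3, and neither without late regressed arrays 2 and 3. Of 6 platelet markers 3 lay at or below the NC limit and 0 passed, of 5 measured lymphocyte markers (10 listed) 2 lay at or below it and 0 passed, and of 7 epithelial markers 4 lay at or below it and 0 passed. The part of these cell types in the CLDN5, SOX17 and ERG levels was not tested.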

How the data were processed

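The authors summarised each array with RMA, per the submitters' processing notes, which name no version or setting. The deposited values are on a log2 scale, as read from their range. Quantile normalization, common in RMA, would hide a change in total RNA. Of 52865 rows, 158 array controls were left out. Symbols came from the platform annotation and, where matched by Entrez ID in the RefSeq gene table of T2T-MMU8v2.0 (24616 probe sets), 0 changed; no coordinates were used. A listed gene was represented by its probe set with the highest mean.

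Group means of all 12 arrays were fitted with limma 3.58.1 in R 4.3.3 (lmFit, eBayes, no covariate), with Benjamini-Hochberg adjustment over 52707 probe sets. Called means an adjusted p below 0.05, and "rose" or "fell" means called. The scripts were tested on simulated data. Groups and replicate numbers came from the sample titles, which call the arrays biological replicates; the number of arrays limits precision. The sources used here give no scan dates, so no batch was tested. Deviations of same-numbered arrays from their group means had correlations from -0.12 to 0.30 over 12 pairs, so replicate numbers were not taken as pairs.

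Named genes were the members, 9 fixed endothelial genes, up to 4 called genes per list and comparison, the 3 genes most like each member, and those nearest the threshold. Members and lists were chosen with earlier results of these data known. Alternatives covered scaling, filters, variance prior, covariates, array weights, the replicate block and left-out arrays. A planned promoter motif search was not run.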

Additional observations from a re-analysis of the deposited data

Results flagged for a closer look

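ERG probe set 3 on late regressed array 2 read 6.83, while the other 3 late regressed arrays lay between 6.34 and 6.42. Its gap to the next array took 0.84 of the range of the group. Among 18 groups of 4 arrays examined for the 6 probe sets, this was the 1 value that stood so far from the rest, and about 1 in 20 groups does so by chance.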

How the results depend on the processing

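The number of probe sets called by limma depended strongly on the setting, and 4 arrays per group limit the precision. Between late functional and mid-late glands 470 were called, against 107 among probe sets above the median level, 72 above the NC limit, 2682 with only the groups compared, 3106 with array weights, 883 after fitting the 3′ to 5′ difference, 0 after fitting the NC mean, 2417 when late regressed arrays 2 and 3 were dropped, and 4 to 1008 when 1 array was left out. Between late regressed and late functional glands 1 was called, against 2 after median centring, 5 after repeated quantile normalization, 10 above the median level, 10 above the NC limit, 15 with a trended robust prior, 0 with only the groups compared, 11 with array weights, 0 with the 3′ to 5′ covariate, 5 with the NC covariate, 0 without late regressed arrays 2 and 3, and 0 to 924 when 1 array was left out (6244 had an unadjusted p below 0.05 in the fit of all arrays). Between late regressed and mid-late glands 5282 were called, against 1620 with only the groups compared, 2839 with array weights, 0 with the NC covariate, 975 without late regressed arrays 2 and 3, and 2050 to 7532 when 1 array was left out. With the replicate number as a block, 4, 0 and 4349 were called in these comparisons; the numbers were not found to pair the arrays. The NC mean did not overlap between mid-late and late arrays, so fits with it separate poorly between this covariate and a difference from mid-late glands.

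Of the members, CLDN5 between late regressed and late functional glands ranged from 0.49 to 0.69 when 1 array was left out. SOX17 probe set 1 between late regressed and mid-late glands was 1.16 with the NC covariate. Signs turned for small differences. CLDN5 between late functional and mid-late glands was -0.032 after repeated quantile normalization. SOX17 probe set 2 between late regressed and late functional glands was -0.053 with the 3′ to 5′ covariate and -0.064 to 0.41 with 1 array left out. ERG probe set 2 in that comparison was 0.10 with the 3′ to 5′ covariate, 0.0046 without late regressed arrays 2 and 3, and -0.34 to 0.10 with 1 array left out, and between late functional and mid-late glands it was -0.14 with the NC covariate. SOX17 probe set 1 against its midpoint was 0.056 with the 3′ to 5′ covariate, 0.068 with the NC covariate and -0.17 to 0.042 with 1 array left out. With 1 array left out the correlation of deviations ran from 0.29 to 0.85 for CLDN5 and SOX17 and from -0.49 to 0.13 for SOX17 and ERG. Without late regressed arrays 2 and 3, with the group means retaken, it was 0.16 and -0.38.

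Counts of list genes called between late regressed and mid-late glands fell without late regressed arrays 2 and 3 to 1 transcription factor, 1 junction gene, 0 receptors, 1 arterial gene, 1 venous gene, 0 pan-endothelial markers and 3 of all 88. Taking the mean over the probe sets of a gene left 0 receptors. With 1 array left out the counts ran from 2 to 7, 3 to 7, 0 to 2, 1 to 3, 2 to 4, 2 to 6 and 9 to 22 in the same order. The causes were not tested.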
